A study of Mus musculus with 33 samples.

Results

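Killer lectin-like receptors are C-type lectin proteins first described on natural killer (NK) cells and also carried by memory CD8 T cells. The 8 genes described here were taken by symbol from the deposited read count tables, which cover sorted CD8 T cells of mouse skin: Klrd1, Klrc1, Klrc2, Klrk1, Klre1 and Klrg1, which encode receptor chains, and Fcer1g and Tyrobp, which encode adaptors. All 8 had a row in both tables, 8 of 18054 genes in the first experiment and 8 of 18052 in the second. Their rows were matched by symbol alone. After a filter on low counts, 7 could be tested in the first experiment (Klrg1 had too few reads) and 8 in the second.

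CD94, the product of Klrd1, has little signalling tail of its own and pairs with an NKG2 chain. With NKG2A (Klrc1), which carries inhibitory ITIM motifs, it restrains the cell, and with NKG2C (Klrc2), which couples to the adaptor DAP12 (Tyrobp), it activates it. Both pairs recognise the non-classical MHC molecule Qa-1, encoded by H2-T23. NKG2D (Klrk1) forms homodimers that bind stress-induced ligands of the RAE-1, H60 and ULBP families and signals through DAP10 (Hcst) and, in mice, also DAP12, adding to the T cell receptor (TCR) signal in CD8 T cells. Klre1 encodes a further NK receptor chain of the same gene complex. KLRG1 (Klrg1) is an inhibitory receptor for cadherins such as E-cadherin (Cdh1) and marks short-lived effector cells more than resident memory cells. Fcer1g encodes the FcR gamma chain, an ITAM adaptor of Fc receptors on myeloid cells, mast cells and NK cells, which is also found in some innate-like and resident T cells.

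The series asked how a topical glucocorticosteroid (called TA in the labels, 0.01%) affects the resident memory T cells, or TRM, of skin made allergic to dinitrofluorobenzene (DNFB), a hapten whose contact allergy is mediated by CD8 T cells. RNA was measured by CEL-seq2, which reads the 3′ ends of transcripts, in 33 bulk libraries of sorted cells in 16 groups. The first experiment used DNFB-allergic Nur77GFP mice, in which GFP reports recent TCR signalling, and 17 libraries of live CD45+CD8+CD69+CD103+ TRM. Its groups were GFP-negative cells on day 0, just before the DNFB retest, with acetone (3 libraries) or TA (2), GFP-negative and GFP-positive cells on day 1, 24 hours after retest, with acetone or TA (2 libraries in each of 4 groups), and GFP-negative cells on day 6, 144 hours after retest, with acetone or TA (2 each). The second experiment used DNFB-sensitized C57BL/6 mice and 16 libraries, 2 per group: the 4 CD8 subsets by CD69 and CD103 on day 2 after challenge without TA or acetone, and CD69+CD103+ TRM on day 11 or day 42 with acetone or TA. The table headers carry codes, and a label could be tied to a code only for day 0 acetone, for the GFP state on day 1 and for the day 2 CD69+CD103+ subset. The 2 treatment codes of day 1 therefore appear as arm I and arm II, without saying which one received TA. Sets K, L and M are day 0 TA and the day 6 groups, subsets U, V and W are the other day 2 subsets, and sets P, Q, R and S are the day 11 and day 42 groups, each in an order not used here. No source ties replicates to separate animals, and p-values therefore describe the spread of these samples, which may be technical.

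Library totals ran from 2442825 to 8515297 reads in the first and from 2937814 to 13629838 in the second experiment, and no library repeated another. Arm I was sequenced more deeply (5440609 to 8515297 reads, 22.4 to 28.6% mitochondrial) than arm II (2442825 to 3262545 reads, 29.3 to 36.7%). Transcripts matched the sorted identity: Cd8a lay between 450.4 and 957 reads per 1000000 reads of the library (CPM), Cd3e between 385 and 1670.0 CPM, and Cd4 at or under 2.72 CPM in every library. Of the NK cell and group 1 innate lymphoid cell list, 5 of 9 genes had reads in the first and 6 of 9 in the second experiment, with a summed level of 6.93 to 273 and 20.0 to 272.7 CPM, of which Irf8, which activated T cells also express, gave up to 265.6 and 244.6 CPM. Eomes, a factor of NK cells and of circulating memory T cells, was at 0 in 13 of 17 libraries of the first experiment and in 2 of 16 of the second, where it reached 35.9 CPM. Gamma delta T cell genes summed to 26.9 CPM at most, and mast cell and basophil genes to 8.46 CPM in the first and 51.5 CPM in the second experiment. Mononuclear phagocyte and Langerhans cell genes summed to 206 to 1145 and 239 to 1338 CPM, led by the MHC class II genes and Cst3. Keratinocyte genes summed to 408 to 6032 and 1947 to 6042 CPM, beside 3823 to 8796 and 4067 to 7939 CPM for the CD8 T cell list. In bulk RNA, fewer cells carrying a transcript and less transcript per cell cannot be told apart.

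The receptor chain genes other than Klrg1 come from 1 stretch of the genome. On GRCm38 with the GENCODE vM21 annotation, Klre1 (chr6:129577905-129585827, plus strand), Klrd1 (chr6:129591782-129598775, plus), Klrk1 (chr6:129610323-129623864, minus), Klrc2 (chr6:129647496-129660689, minus) and Klrc1 (chr6:129666015-129678973, minus) lie within 101.1 kb of the NK gene complex. Klrg1 (chr6:122270596-122282882, minus) lies 7295 kb away on the same chromosome. Fcer1g (chr1:171229572-171234365, minus) and Tyrobp (chr7:30413760-30417585, plus) lie elsewhere. No annotated gene overlaps any of the 8. Klrc1 and Klrc2 share part of their sequence: 69.4% of the 30-base words in the last 500 bases of the Klrc1 transcript also occur in Klrc2, while none of those of Klrc2 occur in Klrc1. Over whole transcripts, 51.5% of the words of Klrc1 occur in Klrc2 and 31.4% of those of Klrc2 in Klrc1. Reads of the pair may therefore be split between them or dropped, and their separate values are uncertain.

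RefSeq promoters (GRCm38.p6; 250 bases before to 50 after the transcription start) were at hand for 5 of the 8 genes. Those of Klrk1 and Fcer1g are shown because these genes differed between day 2 subsets, cell states or times below. Capitals mark matches to the AP-1 motif TGANTCA, a site type of activated T cells, and to the RUNX motif TGTGGT, searched on both strands.
Klrk1, chr6:129623815-129624114, minus strand: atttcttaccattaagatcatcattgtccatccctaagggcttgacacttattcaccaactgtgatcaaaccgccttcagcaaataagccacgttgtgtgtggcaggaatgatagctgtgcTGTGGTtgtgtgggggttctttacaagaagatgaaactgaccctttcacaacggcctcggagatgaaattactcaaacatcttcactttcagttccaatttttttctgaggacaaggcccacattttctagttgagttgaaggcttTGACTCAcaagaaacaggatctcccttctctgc
Fcer1g, chr1:171234300-171234599, minus strand: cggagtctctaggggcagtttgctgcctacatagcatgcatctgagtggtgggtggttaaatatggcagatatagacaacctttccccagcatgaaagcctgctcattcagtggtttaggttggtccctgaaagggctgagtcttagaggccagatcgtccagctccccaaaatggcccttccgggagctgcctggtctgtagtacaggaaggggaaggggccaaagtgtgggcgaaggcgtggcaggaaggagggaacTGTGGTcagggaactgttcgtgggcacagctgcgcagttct
The Klrk1 promoter held the AP-1 match TGACTCA from base 18 after the start and 1 RUNX match from base -129. The Fcer1g promoter held 1 RUNX match from base 10 and no AP-1 match. Among 32851 RefSeq promoters of the same length, 7.81% held the AP-1 motif and 16.8% the RUNX motif. The T-box motif TCACACC, found in 3.98% of promoters, was in none of the 5 genes. Of those not shown, Klrc2 held an AP-1 match and Klrc1, Klrc2 and Klre1 held RUNX matches. A match describes letters and not a bound site.

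Nearly all reads of the 8 genes came from 3 of them. Klrd1, Klrk1 and Fcer1g took 98.3% of the members' reads in the first experiment and 97.9% in the other, and each had reads in all 33 libraries. Klrc1, Klrc2, Klre1, Klrg1 and Tyrobp stayed at or under 20.2 CPM throughout. The library of highest Klrc2, arm II GFP-positive B, had 20.2 CPM, and no other library passed 6.52 CPM for that gene. Few reads were counted for the NKG2A and NKG2C partners of CD94: Klrc1 and Klrc2 together gave 0.370 to 18.7 reads per 100 Klrd1 reads over all libraries. CPM are not divided by transcript length, so these shares compare reads and not molecules, and reads dropped where Klrc1 and Klrc2 share sequence would lower them.

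The first experiment set Klrd1 apart by group. Before retest, day 0 acetone libraries A, B and C held 227, 229.6 and 263 CPM. On day 1, arm I had 131 and 104 CPM in GFP-negative and 64.7 and 54.2 CPM in GFP-positive libraries A and B. Arm II had 312 and 283 CPM in GFP-negative and 222 and 132 CPM in GFP-positive libraries. Arm I lay below every day 0 library, and arm II GFP-negative cells above them. Sets K (317 and 260.5 CPM), L (329.7 and 328 CPM) and M (255 and 284 CPM) lay at or above the day 0 level. In order of their means the groups ran from arm I GFP-positive through arm I GFP-negative, arm II GFP-positive, day 0 acetone, set M, set K and arm II GFP-negative to set L. The values of day 0 acetone, sets M and K and arm II GFP-negative overlapped with their neighbours in that order, and the other neighbours did not overlap, by as little as 131.4 against 131.8 CPM between arm I GFP-negative and arm II GFP-positive libraries.

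Klrk1 followed another order. Day 0 acetone libraries held 360.5, 392 and 426 CPM. In arm I it stood at 319 and 409 CPM in GFP-negative and 174.5 and 135 CPM in GFP-positive libraries A and B. In arm II it stood at 224 and 191 CPM in GFP-negative and 107 and 145 CPM in GFP-positive libraries. The 4 GFP-positive libraries were the 4 lowest of the 17. Sets K (192 and 226 CPM), M (248 and 279.9 CPM) and L (356.5 and 411 CPM) spread over the range of the other groups. By mean the order was arm II GFP-positive, arm I GFP-positive, arm II GFP-negative, set K, set M, arm I GFP-negative, set L and day 0 acetone. Neighbours overlapped between the GFP-positive groups, between arm II GFP-negative and set K, and among the last 3.

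Fcer1g was highest in sets M (139 and 188 CPM) and L (122 and 145 CPM) and in day 0 acetone (98.4, 116.9 and 117 CPM). Day 1 arm I libraries A and B held 86.9 and 61.4 CPM in GFP-negative and 56.8 and 56.3 CPM in GFP-positive cells. Day 1 arm II libraries held 31.5 and 41.7 CPM in GFP-negative and 4.60 and 39.2 CPM in GFP-positive cells. Every day 1 library lay below every day 0 acetone library. Set K was split, with 102 CPM in A and 31.8 CPM in B.

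**Figure D1:**
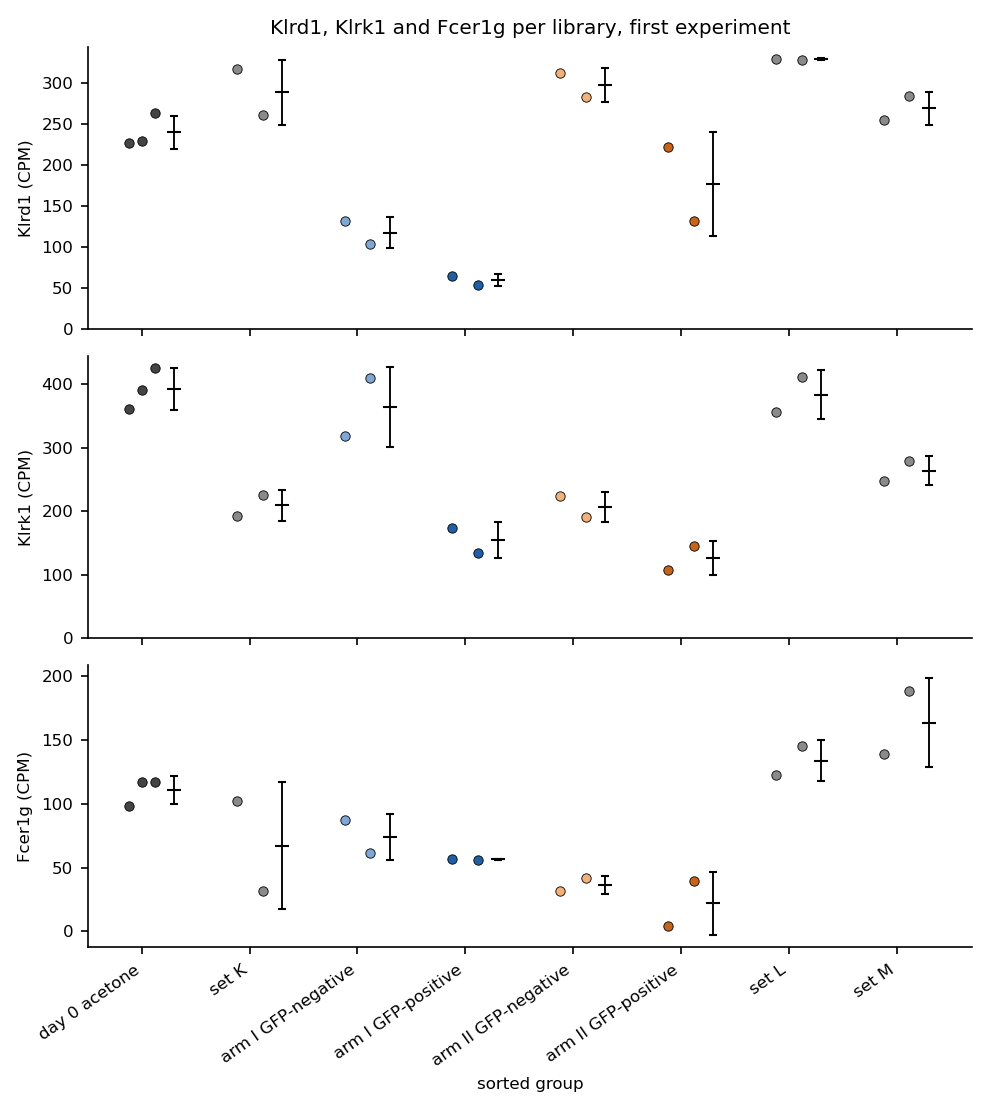
Levels of Klrd1, Klrk1 and Fcer1g in the 17 libraries of the first experiment (CPM, linear axes) by sorted group. Points are libraries, the dash and bar beside them are the mean and SD, and in Klrd1 the 4 arm I libraries (54.2 to 131 CPM) lie below all others while in Klrk1 the 4 GFP-positive libraries (107 to 174.5 CPM) do.

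GFP-positive TRM were compared with GFP-negative TRM to see which transcripts go with recent TCR signalling. Klrk1 and Klrd1 fell in GFP-positive cells. Over both arms (4 libraries against 4) Klrk1 stood at 140.3 ± 27.9 CPM (SD) against 286 ± 98.6, a log2 fold change of -0.85 ± 0.13 (SE; edgeR quasi-likelihood test with Benjamini-Hochberg adjustment, adjusted p = 1.65e-04), and the groups did not overlap. Klrd1 stood at 118 ± 77.1 against 208 ± 105 CPM (-0.74 ± 0.15, adjusted p = 0.00183), and its groups overlapped across the arms. None of the 7 tested members rose and 2 fell, where 5.59% of the 11588 genes tested rose and 6.51% fell. The members' median log2 fold change was 0.31 beside -0.03 for all genes, and rests on members with few reads. In arm I both genes fell (Klrk1 -1.07 ± 0.19, adjusted p = 9.53e-04; Klrd1 -0.83 ± 0.21, adjusted p = 0.0216), where 2.33% of genes rose and 3.03% fell. The arm I call of Klrd1 was lost without GFP-negative A (adjusted p = 0.344), GFP-positive A (0.0878) or GFP-positive B (0.216). In arm II Klrk1 fell by 0.62 ± 0.19 on the log2 scale (adjusted p = 0.0490), with 4.06% of genes rising and 4.01% falling, a call that was lost without GFP-negative A (0.282), GFP-negative B (0.0719) or GFP-positive A (0.374) and with a fit of the compared groups alone (0.229). Klrd1 had a log2 fold change of -0.65 ± 0.21 there (adjusted p = 0.0623). It was -1.06 without arm II GFP-positive A, which leaves 1 library in that group.

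The arms did not differ detectably in the GFP difference of any member. The difference between the arms was 0.46 ± 0.26 for Klrk1 (adjusted p = 0.525) and 0.18 ± 0.30 for Klrd1 (0.904) in edgeR's test, and 0 of 7 members passed with edgeR or with DESeq2, while 0.639% of genes had a larger and 0.25% a smaller GFP difference in arm II. No member had an unadjusted p under 0.05, the lowest being 0.0530 for Tyrobp. Fcer1g was not called over both arms (-0.45 ± 0.44), and its value depended on 1 library. Without arm II GFP-positive B, which held 39.2 CPM against 4.60 in its partner, the log2 fold change was -1.56. That fit leaves 1 arm II GFP-positive library, with 15 Fcer1g reads. Mononuclear phagocyte genes summed to 489 to 498 CPM in the GFP-positive and 206 to 209.6 CPM in the GFP-negative libraries of arm II, and to 840.4 to 1045 and 1091 to 1145 CPM in arm I. The NK list summed higher in GFP-positive libraries of both arms (195.5 to 273 against 72.0 to 86.8 CPM, and 84.0 to 96.3 against 33.0 to 65.1 CPM). Within that list Irf8 was higher (151.9 against 41.3 CPM) and Klrb1c, the NK1.1 gene, lower in GFP-positive cells (1.64 against 19.4 CPM). The Klrb1c level of GFP-negative cells came mostly from arm II, and edgeR called this gene within neither arm. The CD8 T cell list had 3 of 9 tested genes lower and 0 higher, and the keratinocyte list 3 of 10 lower and 1 higher. The part of these cell types in the result was not tested.

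Set against the day 0 acetone libraries, GFP-positive day 1 cells of both arms had less of 3 members. Klrk1 fell from 393 ± 32.8 to 140.3 ± 27.9 CPM (log2 -1.19 ± 0.14, adjusted p = 3.00e-06), Klrd1 from 240.0 ± 20.3 to 118 ± 77.1 CPM (-0.92 ± 0.16, adjusted p = 2.13e-04) and Fcer1g from 111 ± 10.8 to 39.2 ± 24.5 CPM (-1.36 ± 0.47, adjusted p = 0.0451), each without overlap. That is 3 of 7 members lower and 0 higher, where 14.7% of genes were lower and 10.8% higher. The Fcer1g call was lost without any one of day 0 acetone A (adjusted p = 0.0711), B (0.0852) or C (0.0782), arm I GFP-positive A (0.168) or B (0.142), and with the compared groups alone (0.0628). GFP-negative day 1 cells had 0 of 7 members called, beside 3.12% of genes higher and 3.91% lower. Their unadjusted p in edgeR was under 0.05 for 2 members, Klrk1 and Klrc1. DESeq2 called none, and without the filter on low counts Fcer1g passed (-0.92, adjusted p = 0.00159). These comparisons share the day 0 libraries, which had acetone only, while the day 1 means pool the acetone and TA arms. For Klrd1 in GFP-negative cells the pooled log2 fold change of -0.18 ± 0.16 averages arms on opposite sides of day 0. Arm I (104 and 131 CPM) lay below and arm II (283 and 312 CPM) above all day 0 libraries (227 to 263 CPM). For Klrk1 in GFP-negative cells the pooled log2 fold change of -0.34 ± 0.14 also averages unlike arms. Arm II (191 and 224 CPM) lay below all day 0 libraries (360.5 to 426 CPM), while arm I (319 and 409 CPM) overlapped them. CD8 T cell genes summed to 7498 to 8796 CPM on day 0 and 3823 to 4202 CPM in GFP-positive cells (6 of 9 lower and 1 higher, median log2 fold change -0.74), and keratinocyte genes to 3338 to 3912 and 408 to 1308 CPM (8 of 10 lower and 1 higher). Their part in the result was not tested.

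The comparison of the arms asked what TA changes on day 1, with direction given as arm II against arm I. Klrd1 and Klrk1 moved in opposite directions. In GFP-negative cells Klrd1 was higher in arm II, at 298 ± 20.4 against 118 ± 19.4 CPM (log2 1.28 ± 0.21, adjusted p = 5.94e-04), and Klrk1 was lower, at 208 ± 23.6 against 364 ± 63.7 CPM (-0.86 ± 0.19, adjusted p = 0.00707). The Klrk1 call was lost without arm II GFP-negative B (adjusted p = 0.0727) and with the compared groups alone (0.0606). So 1 of 7 members rose and 1 fell, where 1.98% of genes were higher and 4.7% lower in arm II. In GFP-positive cells Klrd1 was again higher in arm II, at 177 ± 63.5 against 59.5 ± 7.43 CPM (1.46 ± 0.21, adjusted p = 3.43e-04), where 0.923% of genes were higher and 2.24% lower. Klrk1 was not called there (-0.40 ± 0.19, adjusted p = 0.314). Fcer1g was not called in either GFP state, at 36.6 ± 7.19 against 74.2 ± 18.1 CPM (-1.08 ± 0.63) and 21.9 ± 24.5 against 56.6 ± 0.402 CPM (-1.50 ± 0.64). Without arm II GFP-positive B the log2 fold change in GFP-positive cells was -3.78. It then rested on 1 arm II library with 15 Fcer1g reads. Without the filter on low counts Fcer1g was lower in arm II in GFP-negative (-1.09, adjusted p = 0.00928) and GFP-positive cells (-1.51, adjusted p = 1.33e-04).

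Depth and mitochondrial share differed between the arms in the way given above. Refitted without mitochondrial genes, the Klrd1 difference was 1.28 in GFP-negative (adjusted p = 5.57e-04) and 1.46 in GFP-positive cells (3.20e-04). Since the main fit already rescales libraries (TMM), this refit could change these values little. The part of depth and mitochondrial share in the result was not tested. Keratinocyte genes summed to 465 to 642 CPM in GFP-negative libraries of arm II against 1783 to 1960.0 CPM in arm I, and mononuclear phagocyte genes to 206 to 209.6 against 1091 to 1145 CPM. Their part in the result was not tested. The NK list summed to 33.0 to 65.1 CPM in arm II GFP-negative and 72.0 to 86.8 CPM in arm I GFP-negative libraries. Of its 3 tested genes 1 was lower in arm II and 0 higher, with a median log2 fold change of -2.49 beside -0.07 for all genes. The lower gene was Irf8 (10.2 against 72.4 CPM, log2 -2.88 ± 0.69, edgeR adjusted p = 0.0188). Klrb1c, the NK1.1 gene, stood at 30.6 to 44.6 CPM in arm II and 0.551 to 2.08 CPM in arm I (4.76 ± 1.40, adjusted p = 0.0519) and was not called. The part of such cells in the result was not tested.

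Reads of Klrd1 per read of Klrk1 put the pattern in 1 number per library, since library size cancels. The ratio was 0.586 to 0.630 in day 0 acetone. In arm I it was 0.254 and 0.412 in GFP-negative and 0.371 and 0.403 in GFP-positive libraries. In arm II it was 1.39 and 1.48 in GFP-negative and 0.907 and 2.07 in GFP-positive libraries. Arm I thus lay below and arm II above all day 0 libraries, in both GFP states. Sets K (1.15 and 1.65), L (0.799 and 0.925) and M (1.01 and 1.03) also lay above day 0. In the second experiment the ratio was 1.25 and 1.497 in day 2 CD69+CD103+ cells and 0.492 to 0.995 in the 8 day 11 and day 42 libraries.

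**Figure D2:**
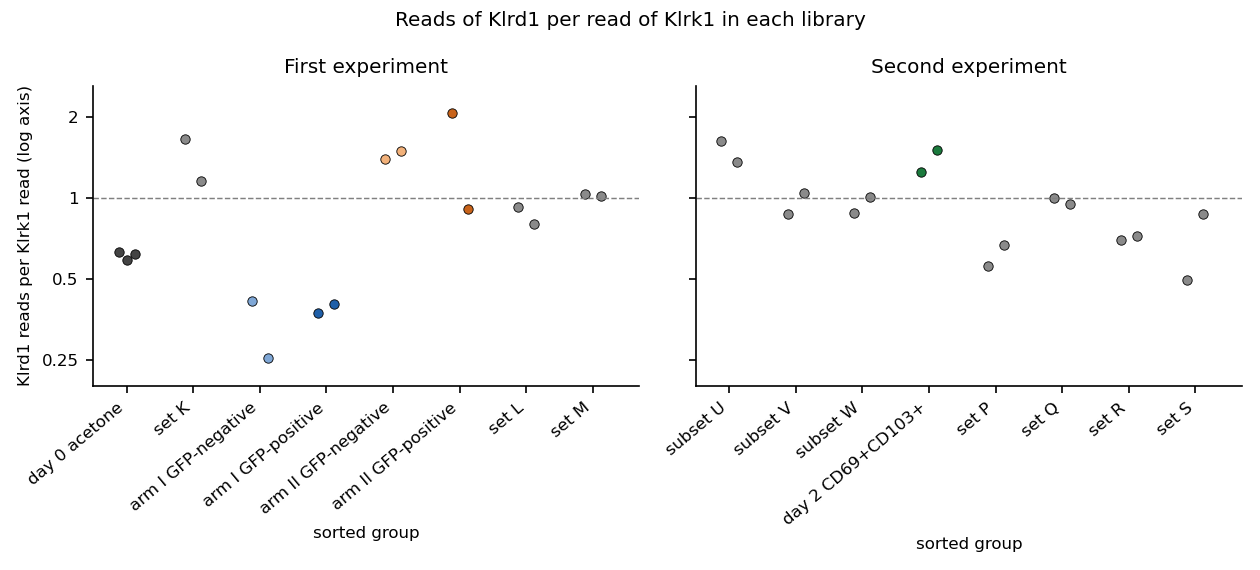
Klrd1 reads per Klrk1 read in each of the 33 libraries (points, log axis; the dashed line marks 1) by sorted group in both experiments. Arm I libraries of both GFP states (0.254 to 0.412) lie below, and arm II libraries (0.907 to 2.07) above, the 3 day 0 acetone libraries (0.586 to 0.630).

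Among day 0 acetone and sets K, L and M, Klrk1 differed (edgeR test of any difference, adjusted p = 0.0220), with 209 ± 24.1 CPM in set K, 264 ± 22.6 in M, 384 ± 38.6 in L and 393 ± 32.8 in day 0 acetone. It was 1 of 7 members called, where 9.5% of genes were. The call was lost without set K replicate A (adjusted p = 0.146). Klrd1 (adjusted p = 0.341) and Fcer1g (0.542) were not called, and Fcer1g passed without the filter on low counts (0.00313). Set K had 2560156 and 2952120 reads and 34.9 and 36.3% mitochondrial reads, against 22.2 to 31.6% in the other 3 groups. Its CD8 T cell genes summed to 5461 to 5580 CPM, against 6717 to 8796 CPM in the others, and all 10 keratinocyte genes differed among the 4 groups. Their part in the result was not tested.

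**Figure D3:**
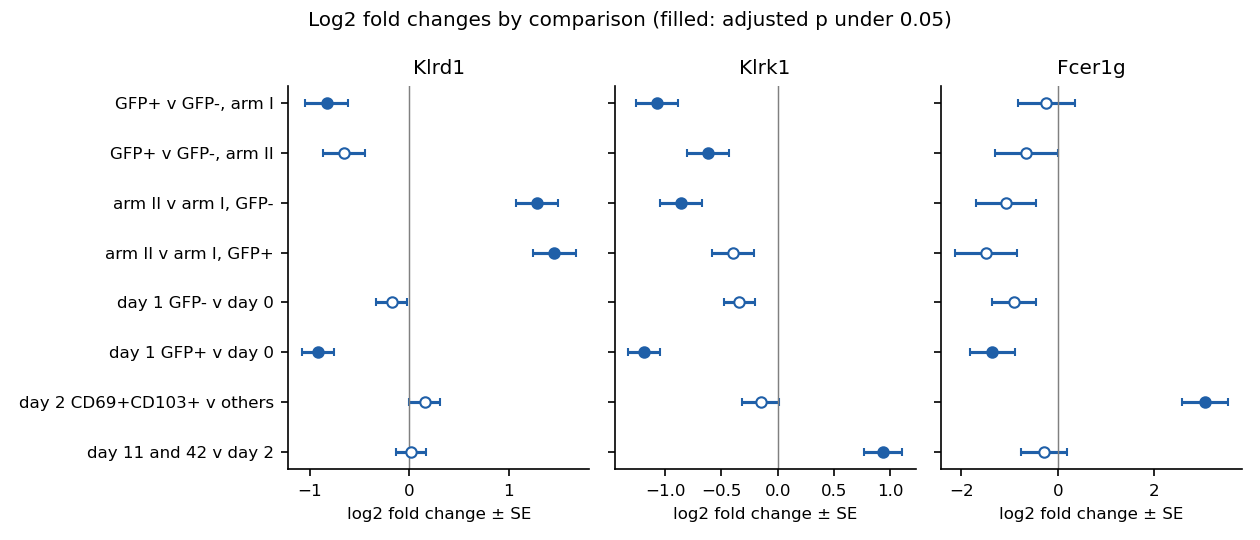
Log2 fold changes (points) with SE (bars) of Klrd1, Klrk1 and Fcer1g in 8 comparisons of edgeR's fit, filled where the adjusted p was under 0.05. Klrd1 and Klrk1 both lie left of 0 for GFP-positive against GFP-negative cells and on opposite sides of 0 for arm II against arm I, and Fcer1g is filled on the right for day 2 CD69+CD103+ cells (3.05 ± 0.48).

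In the second experiment the day 2 subsets differed in Fcer1g. Day 2 CD69+CD103+ libraries 1 and 2 held 98.2 and 69.1 CPM. Subset U held 6.21 and 1.12 CPM, subset V 8.42 and 18.1 CPM, and subset W 28.7 and 21.4 CPM. Each CD69+CD103+ library lay above all 6 others. The log2 difference of CD69+CD103+ cells from the mean of the other 3 subsets was 3.05 ± 0.48 (83.6 ± 20.6 against 13.98 ± 10.4 CPM, edgeR adjusted p = 0.00826). It was 1 of 8 members higher and 0 lower, where 0.319% of 12236 genes were higher and 0.049% lower. Fcer1g was also the 1 member called by the test of any difference among the 4 subsets (adjusted p = 0.0125), which called 1.21% of genes. The call against the mean of the others was lost without either CD69+CD103+ library (adjusted p = 0.207 without 1 and 0.0805 without 2), without subset V replicate 1 (0.0631) or without subset W replicate 2 (0.0656), while DESeq2 gave 3.01 (adjusted p = 9.56e-06). The call among the 4 subsets was lost without CD69+CD103+ replicate 1 (0.137) or 2 (0.0702), subset V replicate 1 (0.0642) or 2 (0.0550) or subset W replicate 2 (0.0507).

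Fcer1g is also a gene of mast cells, NK cells and phagocytes, so their markers were set beside it. Mast cell and basophil genes summed to 14.7 to 24.0 CPM in CD69+CD103+ libraries and 5.93 to 14.5 CPM in the others, of which Kit made up 13.4 to 21.6 CPM in the former, while Mcpt4 and Cpa3 were at 0 in CD69+CD103+ cells. Phagocyte genes summed to 726 to 740.5 CPM in CD69+CD103+ cells, 239 to 316 CPM in subset U, 476 to 488 CPM in V and 790.4 to 871 CPM in W. Of 19 tested, 3 were higher with Fcer1g in CD69+CD103+ cells and 0 lower (median log2 2.78 beside 0.07 for all genes): the MHC class II gene H2-Aa (1.36 ± 0.24) and the complement genes C1qb (4.34 ± 0.86) and C1qc (5.63 ± 1.01), at 19.0 and 13.4 CPM. The NK list summed to 144 to 167 CPM in CD69+CD103+ cells, 212 to 272.7 CPM in subset U, 86.9 to 103.7 CPM in V and 45.3 to 52.8 CPM in W, of which Irf8 gave 101.6 to 138 CPM in CD69+CD103+ and 196.5 to 244.6 CPM in U. Of 4 tested NK genes Klri2 was higher in CD69+CD103+ cells (21.4 against 3.71 CPM) and 0 were lower. The part of these cell types in the Fcer1g difference was not tested. Tyrobp, the DAP12 gene that these cell types share, was at 6.59 and 5.53 CPM in CD69+CD103+ cells. It was at 0 and 0.374 CPM in subset U, 1.04 and 4.52 CPM in V and 2.27 and 6.52 CPM in W. Its subset means ran in the same order as those of Fcer1g, and edgeR did not call the difference (log2 2.21 ± 1.11, adjusted p = 0.788). Itgae, which encodes the sorted CD103, was at 88.3 and 68.3 CPM in CD69+CD103+ cells, 83.7 and 84.4 in subset W, and under 7.10 CPM in subsets U and V.

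Klrd1 and Klrk1 showed no detectable difference between CD69+CD103+ cells and the other day 2 subsets. Klrd1 held 313 and 329 CPM in CD69+CD103+ cells, 389.7 and 366 CPM in subset U, 215 and 265 CPM in V and 258.5 and 340.3 CPM in W. Its difference of CD69+CD103+ from the mean of the others was 0.15 (range of 2 SE to each side, -0.15 to 0.46). Klrk1 held 251 and 220.0 CPM in CD69+CD103+ cells, 239.9 and 269 CPM in U, 247 and 255 CPM in V and 295 and 338 CPM in W, a difference of -0.15 (range of 2 SE to each side, -0.48 to 0.17). A test of any difference gave adjusted p = 0.344 for Klrd1 (0.0331 with DESeq2) and 0.747 for Klrk1.

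Klrk1 was higher in the day 11 and day 42 groups than in day 2 CD69+CD103+ cells, and Klrd1 did not differ detectably. The 8 later CD69+CD103+ libraries held 373 to 630.4 CPM of Klrk1 (median 430.5), all above the 251 and 220.0 CPM of the day 2 CD69+CD103+ libraries. The log2 difference was 0.94 ± 0.17 (461 ± 100.2 against 236 ± 22.1 CPM, edgeR adjusted p = 0.00123), and it was lost without day 2 CD69+CD103+ replicate 2 (0.80, adjusted p = 0.0745). Klrd1 held 261 to 383 CPM in the later libraries (log2 0.02, range of 2 SE to each side -0.28 to 0.32), and Fcer1g 21.9 to 160 CPM (-0.28 ± 0.48, adjusted p = 0.843). Of 8 members 1 rose and 1, Klrg1, fell, where 3.33% of genes rose and 4.89% fell. CD8 T cell genes summed to 4512 to 4953 CPM on day 2 and 5412 to 7939 CPM later (3 of 9 higher, 0 lower), neutrophil genes to 121.7 to 130.4 and 2.22 to 18.3 CPM (2 of 3 lower), and the CD4 T cell list to 578 to 721 and 108 to 352 CPM (2 of 4 lower). Over the second experiment the CD4 list was led by Ctla4 (37.3 to 791 CPM). Ikzf2 reached 65.5, Foxp3 27.4, Cd40lg 11.9 and Cd4 2.29 CPM at most. The part of these cell types in the result was not tested. Day 2 cells had neither acetone nor TA, while all later groups had acetone or TA. Time and treatment therefore cannot be told apart in any comparison of the later groups with day 2, here or below. Both comparisons of the second experiment share the day 2 CD69+CD103+ libraries.

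Klrg1 was found in few libraries. In the second experiment it had 17 and 30 reads (1.47 and 2.63 CPM) in day 2 CD69+CD103+ cells, 7 and 27 reads (2.07 and 5.05 CPM) in subset U, and 63 and 25 reads (6.55 and 5.65 CPM) in subset V. Subset W had none, which allows up to 0.153 CPM (3 reads over the group). Of the 8 later TRM libraries 7 had no read, and set R replicate 1 had 4 reads (0.709 CPM). The fall from day 2 had an adjusted p of 0.0345 in edgeR (0.0886 ± 0.251 against 2.05 ± 0.819 CPM), and was lost with DESeq2 (0.0942) and without any one of 6 of the 10 libraries, so it rests on few reads. With the compared groups alone Klrg1 failed the filter on low counts. In the first experiment 15 of 17 libraries had none, and arm I GFP-negative B and GFP-positive A had 1 and 7 reads.

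**Figure D4:**
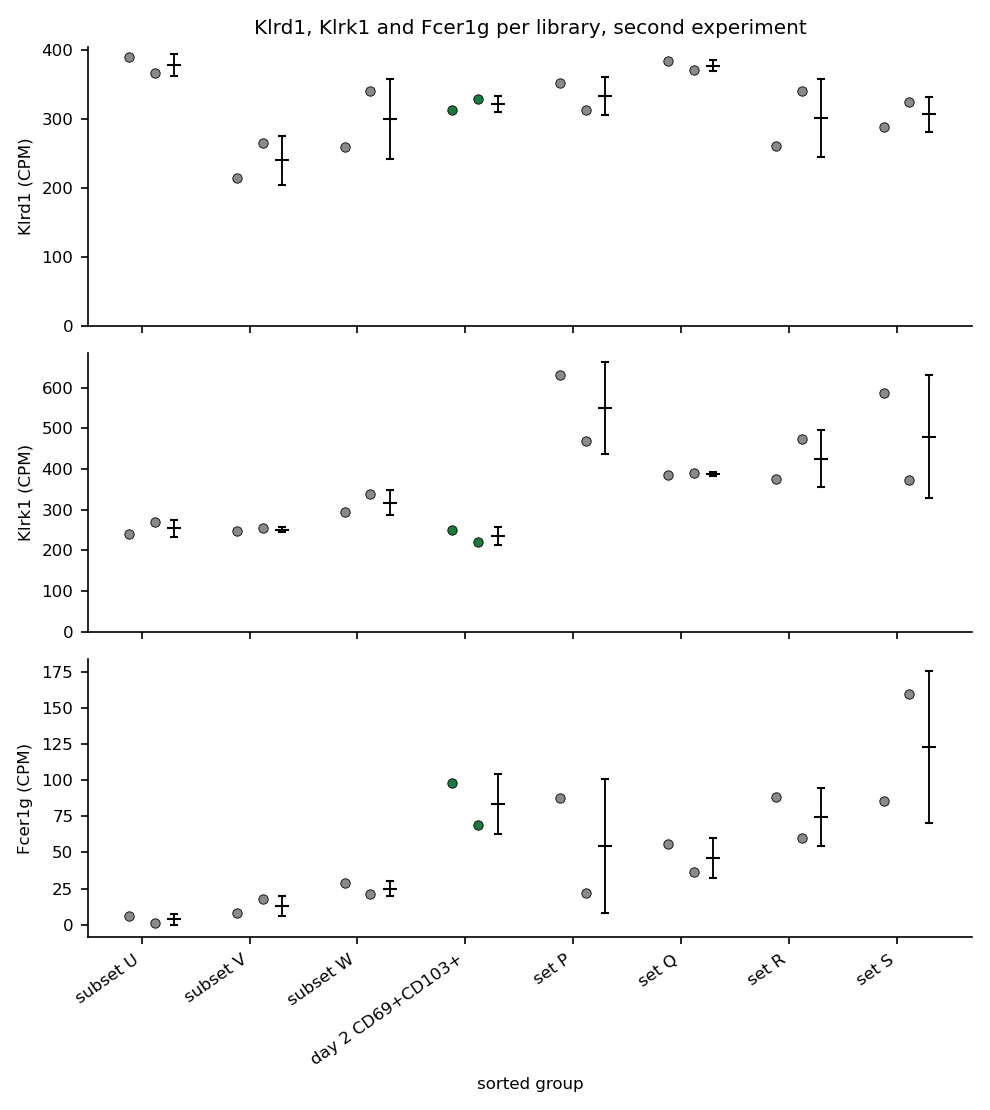
Levels of Klrd1, Klrk1 and Fcer1g in the 16 libraries of the second experiment (CPM, linear axes) by sorted group, with libraries as points and mean and SD beside them. Klrk1 is higher in all 8 day 11 and day 42 libraries (373 to 630.4 CPM) than in day 2 CD69+CD103+ cells (220.0 and 251 CPM), and Fcer1g is low in subsets U, V and W (1.12 to 28.7 CPM).

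Among the 4 day 11 and day 42 groups 0 of 8 members differed in edgeR's test or in DESeq2's, and none had an unadjusted p under 0.05 in edgeR, where 2.12% of genes differed. Klrk1 held 630.4 and 470.0 CPM in set P, 385 and 391 CPM in Q, 376 and 475 CPM in R and 586 and 373 CPM in S. Klrd1 held 352 and 313 CPM in P, 383 and 371 CPM in Q, 261 and 341 CPM in R and 288 and 325 CPM in S. Fcer1g held 87.5 and 21.9 CPM in P, 56.1 and 36.5 CPM in Q, 88.4 and 60.1 CPM in R and 85.4 and 159.8 CPM in S. Sets overlapped with at least 1 other for each of these 3 genes, except that set Q lay above the other 3 in Klrd1. Set Q carried mast cell transcripts (Mcpt4 at 8.84 and 11.9 CPM, at 0 in the other 3 sets), beside the Fcer1g values given above. The part of mast cells in the Fcer1g level was not tested.

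The partner chains and the minor members were near the detection limit. Klrc1 ranged from 0 to 5.73 CPM in the first and 2.37 to 13.4 CPM in the second experiment, with 197 and 500 reads in all. Klrc2 ranged from 1.17 to 20.2 and 0.681 to 6.52 CPM. Day 0 acetone had 0.287 to 0.716 CPM of Klrc1, below all 8 day 1 libraries (0.954 to 5.73 CPM), and edgeR called neither GFP state against day 0 (adjusted p = 0.214 and 0.0817), while DESeq2 called GFP-positive cells (2.94, adjusted p = 0.0273). Klre1 reached 4.28 CPM in the first and 11.5 CPM in the second experiment, the latter in subset U replicate 1 (2.62 CPM in replicate 2). Tyrobp was at or under 6.59 CPM everywhere and listed at 0 in both libraries of set K and of arm II GFP-negative cells. No comparison called Klrc1, Klrc2, Klre1 or Tyrobp in edgeR's test.

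**Figure D5:**
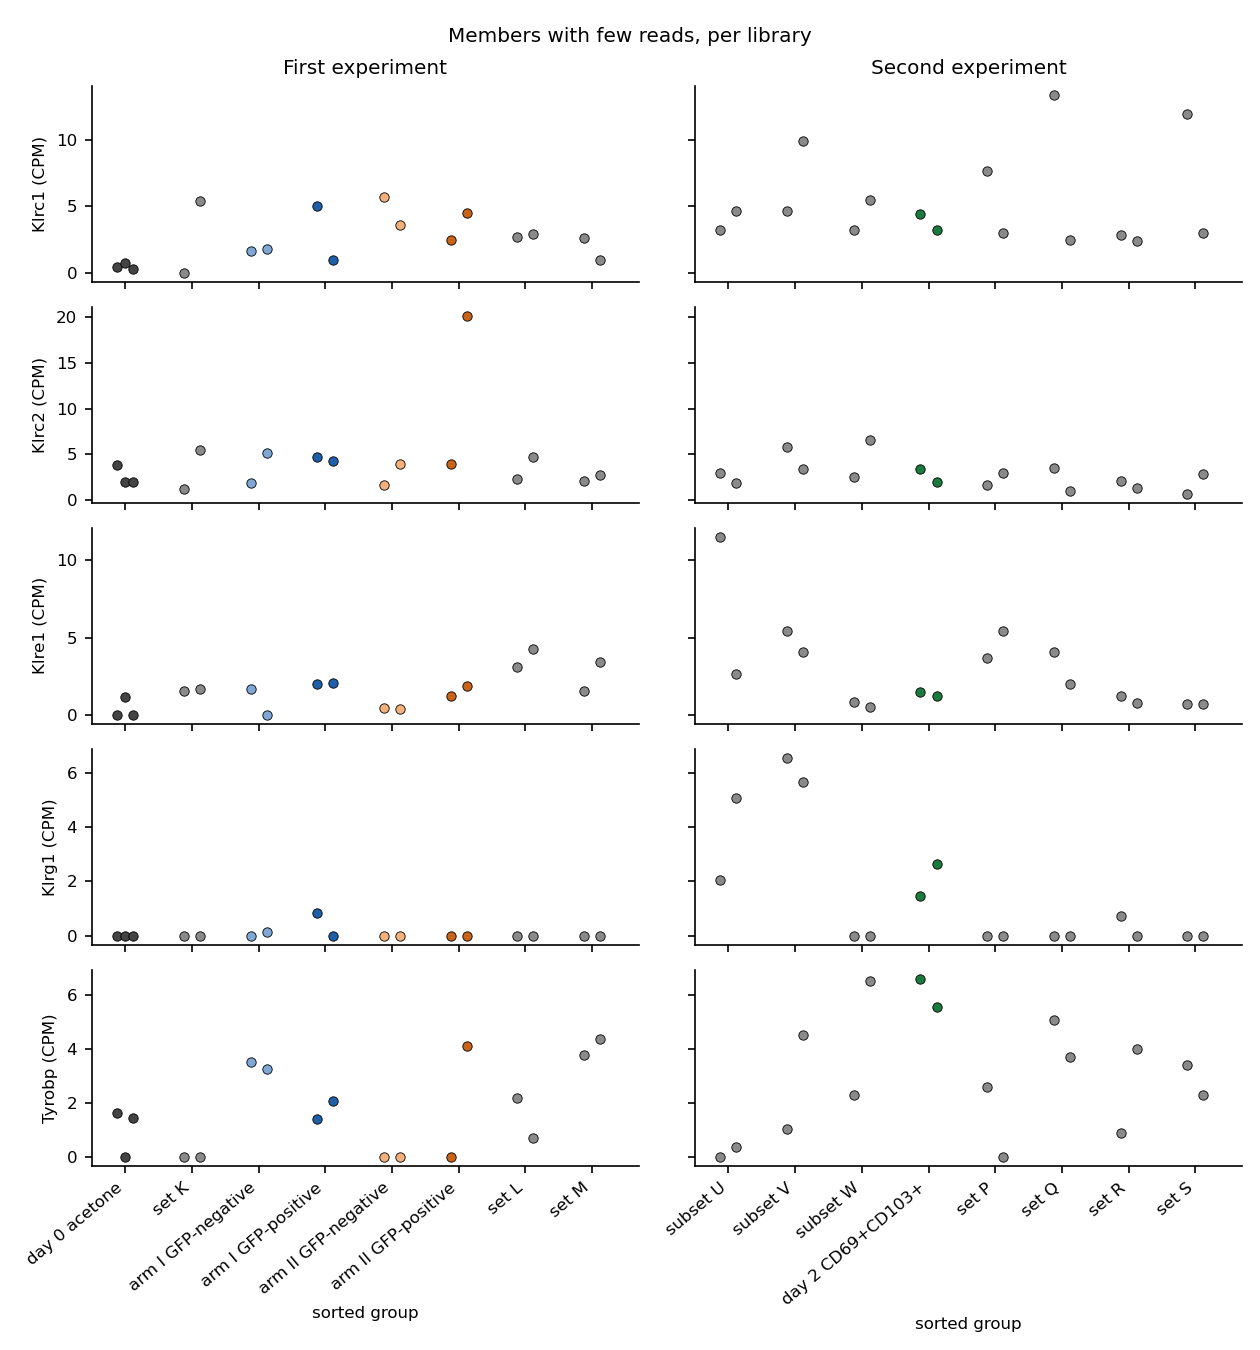
Levels of the 5 members with few reads in every library (points, CPM, linear axes shared along each row) by sorted group in the first (left) and second (right) experiment. Klrc1 and Klrc2 stay under 20.2 CPM, and Klrg1 is seen in day 2 CD69+CD103+ cells and subsets U and V (1.47 to 6.55 CPM) and at 0 in subset W and most TRM libraries.

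Adaptors and kinases downstream of these receptors were followed as a list of 18 genes, of which 16 were tested in the first experiment and 18 in the other. Hcst, whose DAP10 product carries the NKG2D signal, fell from day 0 (787 ± 28.6 CPM) to day 1 in GFP-negative (483 ± 43.4 CPM, log2 -0.53 ± 0.10, edgeR adjusted p = 0.00233) and in GFP-positive cells (413 ± 85.7 CPM, -0.64 ± 0.10, adjusted p = 7.58e-05). It rose from day 2 CD69+CD103+ cells (234 ± 33.5 CPM) to the later groups (681 ± 114 CPM, 1.52 ± 0.18, adjusted p = 1.76e-05). Its log2 difference between GFP states was -0.12 ± 0.09 and was not called. In GFP-positive against GFP-negative cells 5 of the 16 rose and 3 fell, where 5.59% of all genes rose and 6.51% fell. Those that rose most were Sh2d2a, an adaptor of T cell activation (1.35 ± 0.13), the TCR kinase gene Zap70 (1.29 ± 0.17), the kinase gene Fyn (1.00 ± 0.17) and the scaffold gene Lcp2 (SLP-76; 0.95 ± 0.15). The 3 that fell, named after their values were seen, were the phosphatase gene Inpp5d (-0.93), the exchange factor gene Vav1 (-0.84) and the adaptor gene Lat (-0.47). The list's median was 0.07 beside -0.03 for all genes. Syk, the kinase that DAP12 and FcR gamma recruit in NK and myeloid cells, reached 2.05 CPM in the first and 12.6 CPM in the second experiment.

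Between GFP states the list had 4 higher and 0 lower within arm I (2.33% and 3.03% of all genes) and 2 and 0 within arm II (4.06% and 4.01%). Between the arms, 3 were higher in arm II among GFP-negative cells (1.98% of all genes) and 1 among GFP-positive cells (0.923%; Zap70, 0.89 ± 0.24), and 0 were lower (4.7% and 2.24%). Against day 0 acetone it had 1 higher and 3 lower in GFP-negative (3.12% and 3.91% of all genes) and 4 and 4 in GFP-positive cells (10.8% and 14.7%), with medians of -0.13 and -0.28 beside -0.12 and -0.18 for all genes. In the second experiment 2 of 18, Pik3r1, a PI3 kinase subunit (1.88 ± 0.26), and Hcst, rose from day 2 to the later groups (3.33% of all genes), and 0 passed between CD69+CD103+ cells and the other day 2 subsets.

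Of the ligand list, 5 genes were tested in the first experiment and 4 in the other. Cdh1, the E-cadherin gene, expressed by epithelium and some T cells, fell in GFP-positive cells from 178.7 ± 61.6 to 44.0 ± 5.56 CPM (log2 -1.84 ± 0.15, edgeR adjusted p = 3.91e-08) and rose from day 2 to the later groups from 62.2 ± 8.91 to 401 ± 189.6 CPM (2.53 ± 0.20, adjusted p = 1.13e-07). H2-T23, the Qa-1 gene, rose in GFP-positive day 1 cells against day 0 acetone, from 10.8 ± 1.41 to 19.5 ± 3.799 CPM (1.14 ± 0.35, adjusted p = 0.0204), and was not called between GFP states (0.73 ± 0.32). No other ligand gene passed in any of the 2-group comparisons.

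Other killer lectin-like receptor genes had few reads: of 21 listed, 13 had reads in the first experiment and 15 in the other, and 5 and 7 were tested. Klrb1b, of the NKR-P1 receptor family, had 9.49 to 72.2 CPM in the first experiment. Among GFP-negative cells it was higher in arm II, as Klrd1 was, at 68.5 ± 5.35 against 12.7 ± 4.46 CPM (log2 2.37 ± 0.46, edgeR adjusted p = 0.00256), 1 of 5 higher and 0 lower, where 1.98% of all genes were higher and 4.7% lower. In day 2 CD69+CD103+ cells Klrb1b (4.49 ± 0.75, 9.85 ± 0.903 against 1.34 ± 1.83 CPM) and Klri2 (3.38 ± 0.71, 21.4 ± 6.53 against 3.71 ± 4.33 CPM) were higher than in the other subsets, 2 of 7 and 0 lower, where 0.319% of all genes were higher and 0.049% lower. Klrb1c, the NK1.1 gene, was lower in GFP-positive than in GFP-negative cells over both arms (-4.62 ± 1.32, adjusted p = 0.0290, 1.64 against 19.4 CPM). Its GFP-negative level came mostly from arm II, and it was called within neither arm. Klrb1c was higher at the later times than in day 2 CD69+CD103+ cells (4.53 ± 1.21, adjusted p = 0.0268, 18.6 ± 30.2 against 0.391 CPM). That later mean was uneven: a set Q library held 90.9 CPM, while the median over all libraries of the second experiment was 2.95 CPM. Klrb1f was lower at the later times (-4.41 ± 1.30, adjusted p = 0.0449). Klrb1b and Klrb1c each overlap the annotated gene Gm44511 on their strand, and Klrb1f overlaps Gm43992 and Gm44000, so their counts are uncertain. The Ly49 genes of the list (Klra family) reached 4.43 CPM at most, in Klra3.

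Genes whose log2 CPM followed a member most closely were ranked by the mean of the Pearson correlations over 17 libraries of the first and 16 of the second experiment, among 5351 genes at a mean of 10 CPM or more. For Klrk1 these were S100a4, a calcium-binding protein gene (r = 0.86 and 0.89), Cdh1 (0.92 and 0.82) and Arl4c, a small GTPase gene (0.91 and 0.82). For Fcer1g they were Tmed3 (0.79 and 0.77), Itgae (0.72 and 0.79) and Ly6g5b (0.72 and 0.75). For Klrd1 they were Bnip3 (0.77 and 0.68), Lta4h (0.76 and 0.60) and Polr2i (0.67 and 0.67). Klrk1 and Klrd1, neighbours on chromosome 6, correlated by 0.34 and 0.18, and Klrk1 and Fcer1g by 0.71 and 0.47. Libraries of a group share their sort and much of their depth, so these values only describe the libraries.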

How the data were processed

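RNA of sorted skin CD8 T cells was measured by CEL-seq2 in 33 libraries. The deposited tables hold whole-number read counts. Reads were placed on GRCm38; tools named in the submitters' processing notes are BWA 0.7.15, HTSeq and bcl2fastq 2.2. Collapsing of molecular barcodes and use of strand: not given in the sources used here. Spike-in rows were dropped and CPM were computed on library totals. Each experiment was fitted on its own with edgeR 4.0.16 (R 4.3.3; filterByExpr, TMM, robust quasi-likelihood F-test, 1 mean per group), with Benjamini-Hochberg adjustment over 11588 and 12236 genes and calls under 0.05. SE is the log2 fold change divided by the square root of F. The fit was also run on simulated counts, with the same relative spread for every gene. The data are less even than that, so no conclusion is drawn from the simulation. A count of 0 allows up to 3 counts, which covers counting error only. Alternatives were DESeq2 1.42.0 and its size factors, no filter, the compared groups alone, a replicate block, no mitochondrial genes and leaving out each library. All 8 genes are named in the comparisons, and from each list at most 4 called genes of largest change. The genes and lists were chosen with earlier results of these data known.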

Additional observations from a re-analysis of the deposited data

How the results depend on the processing

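Counts of called members kept within 1.5 times and no member reversed its direction in any alternative, except as follows. Between GFP states in arm II, 1 member was called with edgeR as described, 0 with DESeq2 size factors, 0 without the low-count filter, 0 with the compared groups alone and 2 with DESeq2's test. Between the arms, the compared groups alone gave 1 instead of 2 in GFP-negative cells, and no filter gave 2 instead of 1 in GFP-positive cells. GFP-negative cells against day 0 had 1 instead of 0 without the filter and with the compared groups alone. Among day 0 acetone and sets K, L and M no filter gave 2 instead of 1. DESeq2 gave 2 instead of 1 among the day 2 subsets and 1 instead of 2 for the later times, where the compared groups alone also gave 1. Apart from the filters and smaller groups themselves, the cause was not tested.

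Leaving out 1 library each gave 2 to 3 members between GFP states over both arms, 1 to 2 in arm I, 0 to 2 in arm II, 0 for the difference between arms, 1 to 2 between the arms in each GFP state, 0 for GFP-negative and 2 to 3 for GFP-positive cells against day 0. It gave 0 to 1 among day 0 acetone and sets K, L and M, 0 to 1 for both day 2 tests, 0 to 2 for the later times against day 2 and 0 among the later groups.

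With the replicate block, which the letters allow in the first experiment only, 0 members were called between GFP states in arm II (Klrk1, adjusted p = 0.0554) and 0 among day 0 acetone and sets K, L and M, and Fcer1g in GFP-positive cells against day 0 was lost (0.108). Same-lettered libraries did not deviate together: over 28 pairs of groups the correlation ran from -0.06 to 0.03, so the letters were not taken to pair the libraries.

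Over all genes, the following counts of calls moved by over 1.5 times. DESeq2 called 981 against 621 between GFP states in arm I, 1477 against 935 in arm II, 1273 against 775 and 698 against 367 between the arms, 1252 against 814 for GFP-negative cells against day 0 and 1785 against 1101 among day 0 acetone and sets K, L and M. It called 321 against 103 for the difference between arms, 106 against 45 and 465 against 148 for the day 2 tests and 856 against 259 among the later groups. No filter gave 310 for the difference between arms, 626 between the arms in GFP-positive cells, 173 and 570 for the day 2 tests and 943 among the later groups. The compared groups alone gave 242 in arm II, 68 for the difference between arms, 311 and 207 between the arms, 26 for the day 2 subset and 146 among the later groups, and the replicate block gave 466 for GFP-negative cells against day 0. Leaving out 1 library each gave 312 to 412 in arm I, 47 to 104 for the difference between arms, 356 to 556 and 179 to 251 between the arms, 511 to 739 for GFP-negative cells against day 0, 18 to 74 for the day 2 subset and 401 to 1041 for the later times against day 2 (1005 with all libraries). Members with under 500 reads in an experiment are limited by depth.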
